A study of Mus musculus with 8 samples.

Results

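Cells that still carried the Lgr5 reporter in lesions of vismodegib-treated mice were set against the cells without it in untreated basal cell carcinomas, across all genes of a microarray. The comparison used 4 of the 8 arrays of the series: 2 arrays of the population labelled Lgr5+Lrig1+ from vismodegib-treated mice and 2 arrays of the population labelled Lrg5-Lrig1+ (the labels' spelling of an Lgr5-negative sort) from untreated mice. They are called treated Lgr5-positive and untreated Lgr5-negative here, each with an array 1 and an array 2 after the number of its mouse. The question was how near the residual Lgr5-positive cells lie to the Lgr5-negative state of the untreated tumour, and which genes still set them apart.

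All 8 arrays came from back skin of K14-CreER/Ptch1cKO mice, so the deletion of Ptch1 under a Cre driven by the keratin 14 promoter was shared by every group and no array served as a Ptch1-intact control. The tissue is labelled as basal cell carcinoma tumour cells. Epidermis was separated from dermis with thermolysin, and living single cells were sorted on the endogenous Lgr5-GFP reporter and on an antibody to Lrig1. No marker that would exclude leukocytes is named in the sort. Each array is 1 sorted population of 1 mouse, the 4 arrays came from 4 different mice, and treatment, sorted population and mouse differ together between the groups and cannot be told apart. Dose and duration of vismodegib, and the age of the mice, were not given in the sources used here. Because RNA of many sorted cells was measured together, fewer cells of a type and less RNA per cell cannot be told apart either.

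Basal cell carcinoma is driven by the Hedgehog pathway. Without the receptor Ptch1, the membrane protein Smo is free to activate the Gli transcription factors, and these in turn switch on Ptch1, Gli1 and Hhip, so that the transcripts of these genes serve as a readout of the pathway. Vismodegib binds and blocks Smo. Lgr5, a receptor for R-spondins that strengthens Wnt signalling, marks stem cells of the lower hair follicle, and Lrig1, a negative regulator of EGF receptor family signalling, marks stem cells of the upper follicle.

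Signals are log2 values of the robust multi-array average (RMA), a method that brings all arrays to one distribution, so a difference of 1 is a 2-fold change in signal. The arrays had like distributions, with medians between 6.13 and 6.20 and maxima between 13.3 and 13.4, and the number of arrays limits the precision. RNA integrity, read from control probe sets at the 3' and 5' ends of a transcript, was alike in the 8 arrays: the 3' minus 5' difference of Gapdh ran from -0.23 to 0.01 and that of beta actin from -0.58 to -0.34. Each gene was taken from its brightest probe set, and 14403 of 17097 genes were tested after genes that exceeded 4.853 in fewer than 2 arrays had been set aside as dim. Differences are treated Lgr5-positive minus untreated Lgr5-negative, with their standard error (SE, n = 2 arrays a group) and limma's p-value adjusted by Benjamini-Hochberg over all tested genes, and a gene is said to rise or fall where that value was under 0.05. Both groups carried the keratinocyte markers that the label implies: Krt14 stood at 12.58 and 12.67 in the untreated Lgr5-negative arrays and at 12.51 and 12.65 in the treated Lgr5-positive arrays. Trp63, the master regulator of stratified epithelium, stood at 11.79 and 11.63 against 11.82 and 12.02. Neither gene passed the test.

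By the distance between arrays, treated Lgr5-positive cells lay no farther from untreated Lgr5-negative cells than from untreated Lgr5-positive cells. The median absolute difference over the tested genes was 0.184 between the means of treated Lgr5-positive and untreated Lgr5-negative arrays and 0.190 between those of treated and untreated Lgr5-positive arrays. Over single pairs of arrays these distances spanned 0.194 to 0.224 and 0.204 to 0.245, ranges that overlap. Treated Lgr5-positive and treated Lgr5-negative arrays were nearer to each other in the group means, at 0.148, although their single pairs reached from 0.154 to 0.222. Both treated populations came from the same mice. The 2 arrays within a group differed by 0.119 in untreated Lgr5-negative cells and by 0.132 in treated Lgr5-positive cells, below every pair taken across these 2 groups. They differed more within the other groups, by 0.182 in untreated Lgr5-positive and by 0.188 in treated Lgr5-negative cells. Distances to those groups thus hold more spread between replicates, and the distances above are not on a like footing.

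Counted by genes, 1027 of 14403 (7.13%) differed between treated Lgr5-positive and untreated Lgr5-negative cells, 425 of them higher (2.95%) and 602 lower (4.18%). The same fit gave 1566 genes (10.9%) for treated against untreated Lgr5-positive cells and 68 (0.472%) for treated Lgr5-positive against treated Lgr5-negative cells. It gave 2466 genes (17.1%) for the untreated populations against each other, 478 (3.32%) for Lgr5-negative cells with and without drug, and 2448 (17.0%) for treated Lgr5-negative against untreated Lgr5-positive cells. These comparisons share arrays, so their counts are not independent. Both populations of a treatment came from the same mice and were fitted as separate samples, without pairing. The other comparisons lie across different mice. The counts move with single arrays: without untreated Lgr5-negative array 1 or 2 the main count was 345 or 124, without treated Lgr5-positive array 1 or 2 it was 319 or 256, and it was 1273 without either array of the untreated Lgr5-positive group and 1334 without either array of the treated Lgr5-negative group. Of the 124 genes called without untreated Lgr5-negative array 2, all 124 were among the 1027.

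**Figure D1:**
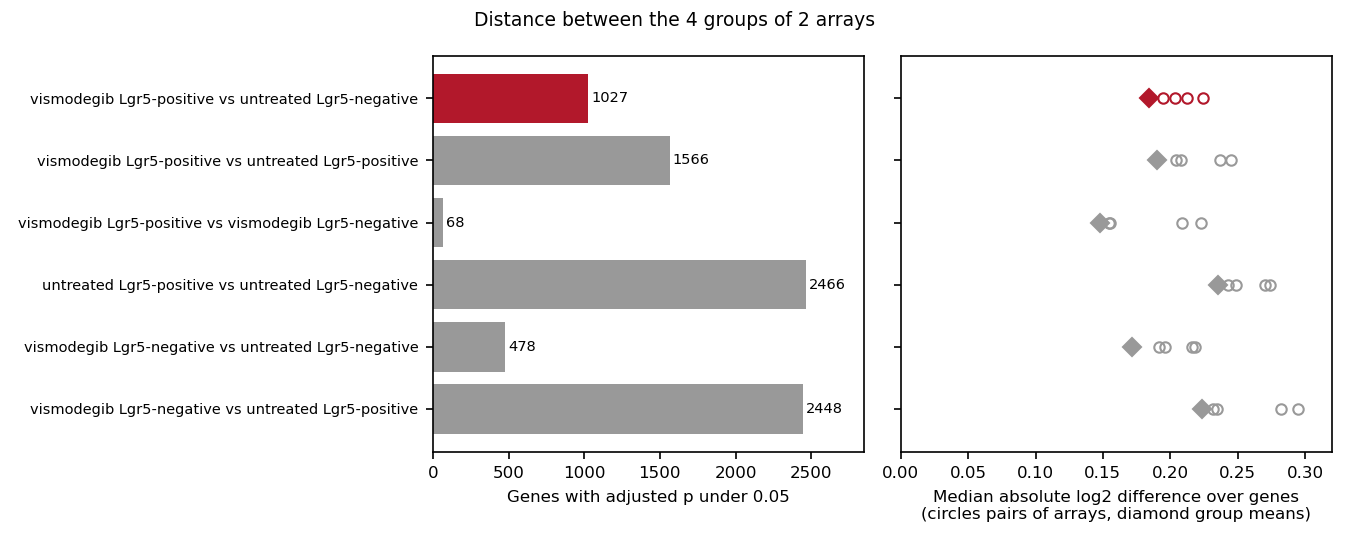
Distance between the 4 groups of 2 arrays. The left panel gives the number of genes with an adjusted p under 0.05 for each pair of groups, and the right panel the median absolute log2 difference over genes, with a diamond for the group means and a circle for each pair of arrays. Treated Lgr5-positive against untreated Lgr5-negative cells, in red, has 1027 genes and a median difference of 0.184, between the 68 genes and 0.148 against treated Lgr5-negative cells and the 1566 genes and 0.190 against untreated Lgr5-positive cells.

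The first 2 principal components of the 8 arrays gave the same picture from another side. On the first component, with 48.2% of the variance, treated Lgr5-positive arrays stood at -13.1 and -7.13 and untreated Lgr5-negative arrays at -8.52 and -12.7, overlapping each other, while untreated Lgr5-positive arrays stood apart at 48.9 and 45.4. On the second, with 25.7%, treated Lgr5-positive arrays were at 23.1 and 25 and untreated Lgr5-negative arrays at -27.2 and -35.1, the 2 ends of that axis. The other 4 arrays lay between them, from -4.39 to 13.9.

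Of the 20 largest decreases 6 were in the wound and stress list, led by Krt6b and S100a8. Of the 20 largest increases 4 were in the macrophage list, Lyz2, Pf4, C1qb and C1qc. Others that myeloid cells are known to express, among them Ccl6, Ccl9, Cybb, Itgb2 and C3ar1, stood outside that list. Pf4 was tested only through the group where it is high. Over all tested genes the median difference was 0.01, with 7546 genes above 0 and 6856 below, and 480 genes (3.33%) passed the test with a change of at least 2-fold. The signals of the 2 groups did not overlap for 61.3% of genes, 31.2% on the higher and 30.1% on the lower side, so absence of overlap alone says little with 2 arrays a group. These shares, and the 2.95% of genes that rose and 4.18% that fell, are the background for the list counts below.

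**Figure D2:**
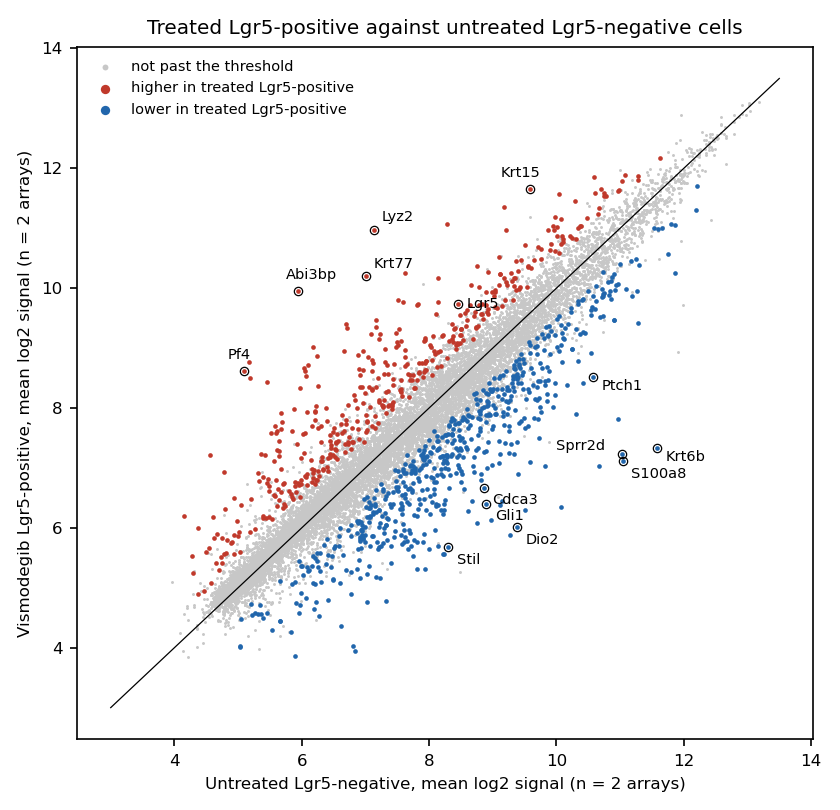
Mean log2 signal of each tested gene in untreated Lgr5-negative cells (x axis, n = 2 arrays) against treated Lgr5-positive cells (y axis, n = 2 arrays). The 425 genes that rose are red, the 602 that fell are blue and the diagonal marks equal signal; Abi3bp and Lyz2 lie farthest above it among the labelled genes and Krt6b farthest below.

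The Hedgehog targets Gli1, Ptch1 and Hhip set the groups apart. Untreated Lgr5-negative cells were not the untreated population with the highest signals of them. Of 18 tested genes of the Hedgehog list, 4 fell and 2 rose, and the list's median difference was 0.10 with 11 members above 0. Gli1, the transcription factor that is itself a target of the pathway, stood at 9.05 and 8.75 in untreated Lgr5-negative arrays and at 6.42 and 6.39 in treated Lgr5-positive arrays. It fell by 2.49 ± 0.17 (SE), 5.63-fold, with adjusted p = 0.00128. Its signals were 9.73 and 10.13 in untreated Lgr5-positive and 6.56 and 6.37 in treated Lgr5-negative arrays, so all 4 treated arrays lay below all 4 untreated ones.

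Ptch1, the receptor and a target, stood at 10.56 and 10.60 in untreated Lgr5-negative and at 8.25 and 8.78 in treated Lgr5-positive arrays, a fall of 2.07 ± 0.22 (adjusted p = 0.00377). A second probe set of Ptch1 differed by -1.19, and whether either probe set lies in the part removed by Cre is not given, so Ptch1 does not check the deletion. In the brightest probe set both treated Lgr5-positive arrays stayed above the 7.72 and 7.77 of treated Lgr5-negative cells. In the second probe set these groups overlapped, at 6.14 and 6.13 in treated Lgr5-positive and 6.24 and 5.95 in treated Lgr5-negative arrays. Hhip, a target that traps the Hedgehog ligands at the cell surface, stood at 7.71 and 7.10 against 5.48 and 5.36, a fall of 1.99 ± 0.36 (adjusted p = 0.0205). That call was lost without any 1 of the 4 arrays (adjusted p = 0.078 to 0.123) and with the mean of its probe sets, whose difference was -1.06 (adjusted p = 0.0952).

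Among other members of the list, namely receptors, Gli factors and the cyclin gene Ccnd2, the picture was mixed. Gas1, a co-receptor for the ligands that Hedgehog signalling represses, stood at 10.40 and 10.08 against 8.82 and 9.15 and fell by 1.26 ± 0.23 (adjusted p = 0.0213, 0.0783 to 0.124 without any 1 of the 4 arrays). Gli3, mainly a repressor, rose from 7.25 and 7.47 to 8.10 and 7.96, by 0.67 ± 0.12 (adjusted p = 0.0222, 0.0861 to 0.13 without any 1 of the 4 arrays). Gli2, the main activator, differed by -0.44 ± 0.13 and missed the threshold (adjusted p = 0.0849). Smo, the drug's target, stood at 11.45 and 11.21 against 11.32 and 11.50, groups that overlap. The cyclin gene Ccnd2 stood at 10.82 and 10.38 against 11.52 and 11.65, a rise of 0.98 ± 0.21 (adjusted p = 0.0356) that was lost without any 1 of the 4 arrays (adjusted p = 0.0632 to 0.242). No member of the list rose without any 1 of the 4 arrays, and 2 fell in each such fit, whereas Gli1 and Ptch1 passed the test in every fit that left an array out.

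Lgr5 itself was set by the sort, and its values are a description. It stood at 8.52 and 8.40 in untreated Lgr5-negative arrays and at 9.44 and 10.03 in treated Lgr5-positive arrays, a difference of 1.28 ± 0.25 or 2.42-fold. Untreated Lgr5-positive arrays were higher still, at 10.98 and 11.001, and treated Lgr5-negative arrays lower, at 5.46 and 4.83. The untreated cells sorted as reporter-negative thus had a signal above each array's median and over 2 log2 units above their treated counterparts. Lrig1, on which all groups were sorted as positive, stood at 10.84 and 10.63 against 11.34 and 11.41 and missed the threshold (difference 0.64 ± 0.17, adjusted p = 0.0644).

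Of 17 tested Wnt targets and feedback genes, 3 rose and none fell, with a list median of 0.23. The 3 were Lgr5, Tnfrsf19 and Myc, of which Lgr5 was chosen by the sort, and 1 or 2 of them remained past the threshold without any 1 of the 4 arrays. Tnfrsf19, a receptor of the tumour necrosis factor family found in follicle stem cells, stood at 7.80 and 8.08 against 9.11 and 9.24. It rose by 1.24 ± 0.15 (adjusted p = 0.00581), and treated Lgr5-negative arrays lay as high as the treated Lgr5-positive ones in the plot of single arrays. Myc, the growth regulator, stood at 9.997 and 10.13 against 11.06 and 11.25, a rise of 1.09 ± 0.25 (adjusted p = 0.0464) that was lost without any 1 of 6 arrays (adjusted p = 0.0542 to 0.217). Axin2, the classic feedback target, stood at 7.50 and 7.39 against 7.99 and 8.46 and missed the threshold (adjusted p = 0.0509). Among 9 secreted Wnt inhibitors 1 fell: Wif1, at 9.32 and 9.16 against 7.71 and 8.28, by 1.25 ± 0.20 (adjusted p = 0.0134). Its call was lost without either untreated Lgr5-negative array or treated Lgr5-positive array 1 (adjusted p = 0.0534 to 0.0858).

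Few bulge and embryonic follicle genes passed the test, and the calls went in both directions. Over all genes 2.95% rose and 4.18% fell, so counts of 1 or 2 in lists this small are no result about the lists. In the bulge and outer root sheath list, 2 of 20 tested members rose and 2 fell, with a median of 0.29. Without either untreated array or treated array 2, 1 rose, and 0 or 1 fell without any 1 of the 4 arrays. Krt15, a keratin of bulge and basal cells, stood at 9.68 and 9.47 in untreated Lgr5-negative arrays and at 11.44 and 11.85 in treated Lgr5-positive arrays, a rise of 2.07 ± 0.17 or 4.20-fold (adjusted p = 0.00188). The other 3 groups were close to each other, with untreated Lgr5-positive arrays at 11.12 and 11.34 and treated Lgr5-negative arrays at 11.65 and 11.81, so the untreated Lgr5-negative arrays alone stood low. Lhx2, a homeobox factor of follicle stem cells, stood at 8.58 and 8.37 against 7.41 and 7.86, and fell by 0.84 ± 0.18 (adjusted p = 0.0362, 0.0512 to 0.179 without any 1 of the 4 arrays). In untreated Lgr5-positive arrays it was at 10.67 and 10.75. Of the 17 tested genes of the embryonic follicle progenitor list, 1 rose and 1 fell. Ncam1, an adhesion molecule of that list, stood at 10.66 and 10.12 against 8.36 and 9.70, with treated array 2 near the untreated arrays, and did not pass the test (adjusted p = 0.175).

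Of 15 tested genes of the upper follicle and infundibulum, 3 rose and 1 fell, with a median of 0.60. Without untreated array 2 none of them passed (5 higher and 1 lower at an unadjusted p under 0.05 in limma's fit), and the 1 that fell was lost without any 1 of the 4 arrays. Fst, a secreted antagonist of activin, stood at 10.13 and 9.94 against 11.45 and 11.70 and rose by 1.54 ± 0.18 (adjusted p = 0.00539, 0.0576 without untreated Lgr5-negative array 2). Gata6, a transcription factor of the upper follicle and the sebaceous duct, stood at 7.79 and 7.46 against 8.75 and 8.65, and rose by 1.07 ± 0.16 (adjusted p = 0.012). That call was lost without treated array 1 or 2 or untreated array 2 (adjusted p = 0.0721 to 0.0997). Krt80 rose from 7.82 and 7.50 to 8.75 and 8.72 (1.08 ± 0.13, adjusted p = 0.0059, 0.054 without untreated array 2). Klk10, a secreted protease, stood at 9.93 and 9.76 against 8.27 and 7.97 and fell by 1.72 ± 0.31 (adjusted p = 0.0199, 0.0751 to 0.129 without any 1 of the 4 arrays). Treated Lgr5-negative arrays also lay above the untreated Lgr5-negative ones for Fst (10.93 and 11.35), Gata6 (8.68 and 8.99) and Krt80 (9.14 and 9.05). Plet1, which marks cells of the junctional zone of the follicle, stood at 11.71 and 11.40 against 11.74 and 11.24, groups that overlap.

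**Figure D3:**
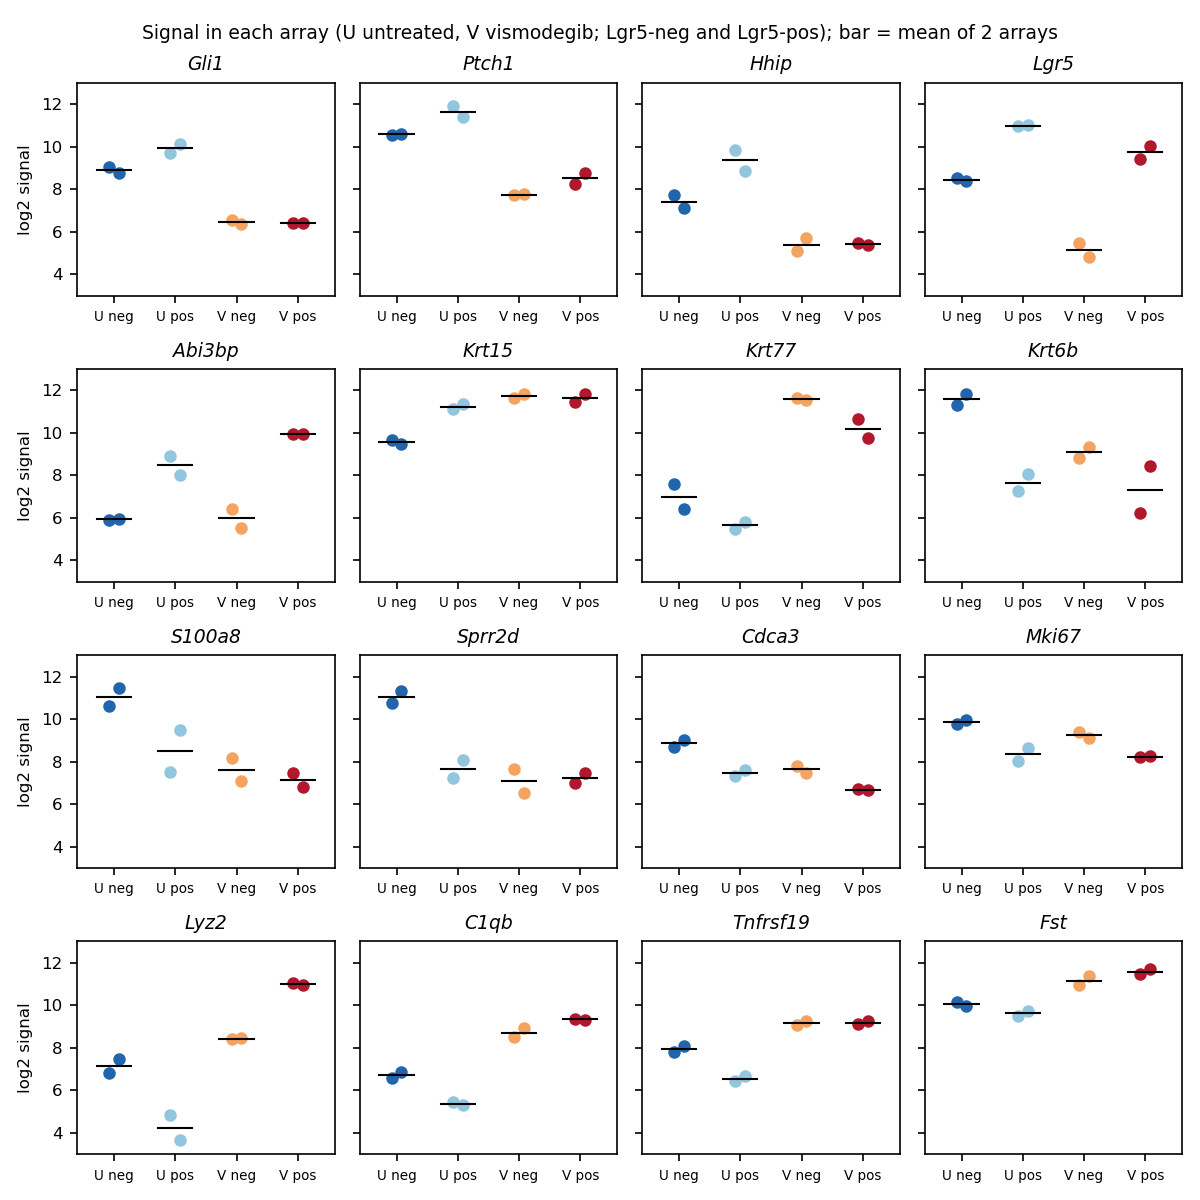
Log2 signal of 16 genes in each of the 8 arrays, with the mean of 2 arrays as a bar (U untreated, V vismodegib, neg and pos for the Lgr5 sort). Gli1 is low in all 4 treated arrays, Krt15 is low only in untreated Lgr5-negative arrays, Abi3bp is high in both Lgr5-positive groups, and Sprr2d is high only in untreated Lgr5-negative arrays.

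Genes of cell division were lower in treated Lgr5-positive cells. Of 29 tested genes of the mitosis list 23 fell and none rose, with a median of -1.41, against 4.18% of all genes that fell. The arrays did not overlap on the lower side for 28 of the 29, against 30.1% of all genes. Of 26 tested genes of DNA replication and nucleotide supply 14 fell and none rose, with a median of -0.92, and 24 did not overlap on the lower side. The counts of called genes rest on single arrays: 15 mitosis genes and 8 replication genes remained past the threshold without untreated Lgr5-negative array 1, and 1 and 0 without its array 2, where limma gave 16 replication genes an unadjusted p under 0.05. Without treated Lgr5-positive array 1 or 2, 7 mitosis genes remained either way, with 8 or 4 replication genes. Hmmr (0.02) and Orc1 (0.23) were the members of the 2 lists above 0, and were picked for that after their values were seen.

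The mean signal over the mitosis list was 8.16 and 8.49 in untreated Lgr5-negative arrays and 6.92 and 6.95 in treated Lgr5-positive arrays. Untreated Lgr5-positive arrays stood at 6.90 and 7.32, level with the treated ones, and treated Lgr5-negative arrays at 7.94 and 7.51. Of the 4 groups, untreated Lgr5-negative cells had the highest mean and both Lgr5-positive groups the lowest.

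Cdca3, which helps to trigger entry into mitosis, stood at 8.69 and 9.02 in untreated Lgr5-negative arrays and at 6.68 and 6.66 in treated Lgr5-positive arrays, a fall of 2.18 ± 0.17 (adjusted p = 0.00188). It is the member of either list named by rule whose call held in every fit that left an array out. Stil, a centriole duplication factor outside the lists, stood at 8.30 in both untreated arrays against 5.61 and 5.75, and fell by 2.62 ± 0.18 (adjusted p = 0.00128), also in every such fit. Cdkn3, a phosphatase of cyclin-dependent kinases, stood at 8.65 and 8.58 against 6.49 and 6.06 and fell by 2.34 ± 0.38 (adjusted p = 0.0145, 0.0557 to 0.103 without any 1 of the 4 arrays). Aurkb, the kinase of the chromosomal passenger complex, stood at 9.20 and 9.57 against 7.18 and 7.67 and fell by 1.95 ± 0.23 (adjusted p = 0.00536, 0.0531 without untreated array 2). Its probe set can also bind related transcripts, so its value is less certain.

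In the replication list, Gins1, a subunit of the replicative helicase, stood at 8.53 and 8.85 against 7.10 and 6.96 and fell by 1.66 ± 0.21 (adjusted p = 0.00602). Mcm5, another helicase subunit, stood at 10.71 and 10.76 against 9.65 and 9.41 and fell by 1.20 ± 0.14 (adjusted p = 0.00535). Its other probe set differed by -0.14, but was under the dim level in all 8 arrays (4.02 to 4.28), so it cannot show a change. Rrm2, the small subunit of ribonucleotide reductase, stood at 9.46 and 9.93 against 8.08 and 8.17 and fell by 1.56 ± 0.19 (adjusted p = 0.0059). In each of these 3 genes the 2 groups stood over 1 log2 unit apart, and each call was lost without untreated array 2 (adjusted p = 0.065 for Gins1, 0.0564 for Mcm5 and 0.0503 for Rrm2). Mki67, the proliferation marker, stood at 9.75 and 9.97 against 8.20 and 8.25 and fell by 1.63 ± 0.21 (adjusted p = 0.00648, 0.0718 without untreated array 2), with treated Lgr5-negative arrays at 9.39 and 9.10. Among 19 tested inhibitors of the cell cycle and quiescence genes, 1 rose and 2 fell, with a median of 0.17. The inhibitor Cdkn2c fell by 0.62 (adjusted p = 0.028), a call lost without any 1 of the 4 arrays (adjusted p = 0.0646 to 0.217).

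Mitotic genes are known to share a pair of promoter elements, the CCAAT box and the cell cycle genes homology region (CHR), and replication genes the E2F site. The sequences here are the 250 bases before the start of transcription in RefSeq (GRCm38.p6), 5' to 3' on the gene's own strand. Cdkn3, Cdc20, Cdk1 and Mki67 have the largest decreases among called mitosis genes with both elements and 1 promoter entry, with genes of 1 chromosome left out. They are shown to let the elements be seen side by side. They were chosen after their values were seen. Capitals mark the CCAAT box (CCAAT or ATTGG) and the CHR (TTTGAA or TTCGAA and their reverse, TTCAAA or TTCGAA).
Cdkn3 (chr14:46760291-46760540, + strand): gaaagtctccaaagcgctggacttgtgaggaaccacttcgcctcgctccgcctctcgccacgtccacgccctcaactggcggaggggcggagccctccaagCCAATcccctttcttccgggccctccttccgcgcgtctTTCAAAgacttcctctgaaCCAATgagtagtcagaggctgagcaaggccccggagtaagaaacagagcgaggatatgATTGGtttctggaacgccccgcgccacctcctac
Cdc20 (chr4:118437344-118437593, - strand): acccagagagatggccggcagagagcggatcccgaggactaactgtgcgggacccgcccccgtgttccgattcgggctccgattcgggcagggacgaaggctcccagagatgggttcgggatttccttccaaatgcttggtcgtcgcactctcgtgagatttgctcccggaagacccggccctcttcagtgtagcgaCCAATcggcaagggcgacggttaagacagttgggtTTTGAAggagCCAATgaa
Cdk1 (chr10:69352913-69353162, - strand): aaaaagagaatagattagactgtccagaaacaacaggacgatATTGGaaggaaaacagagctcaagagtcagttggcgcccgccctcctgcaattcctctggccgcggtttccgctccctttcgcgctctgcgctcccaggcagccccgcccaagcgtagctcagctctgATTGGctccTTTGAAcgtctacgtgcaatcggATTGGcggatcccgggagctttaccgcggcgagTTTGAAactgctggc
Mki67 (chr7:135716380-135716629, - strand): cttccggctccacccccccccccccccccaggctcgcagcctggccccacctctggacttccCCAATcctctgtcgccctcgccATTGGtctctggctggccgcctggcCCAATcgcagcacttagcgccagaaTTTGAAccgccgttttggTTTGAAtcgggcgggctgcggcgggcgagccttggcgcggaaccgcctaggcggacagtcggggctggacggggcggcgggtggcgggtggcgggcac

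The nearest CHR ended 105 bases before the start in Cdkn3, 12 in Cdc20, 9 in Cdk1 and 92 in Mki67. Of the 24 mitosis genes with a promoter entry, 22 held a CCAAT box (91.67%) and 12 a CHR (50%), against 37.49% and 19.55% of all 27025 genes in the table. A match describes letters in this window and is no binding site, and no factor was measured. Cdc20, the activator of the anaphase-promoting complex, stood at 9.71 and 10.23 against 8.29 and 8.13 and fell by 1.76 ± 0.33 (adjusted p = 0.0229, 0.0632 to 0.175 without any 1 of the 4 arrays). Cdk1, the kinase that drives mitosis, stood at 9.58 and 9.91 against 8.03 and 8.01 and fell by 1.72 ± 0.21 (adjusted p = 0.0059, 0.0642 without untreated array 2).

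The replication genes Mcm5 and Rfc3 had the largest decreases among called members with an E2F site (TTTCCCGC, TTTCGCGC, TTTGCCGC or TTTGGCGC on either strand) and 1 promoter entry. Genes of the same chromosome as before were left out. They too were chosen after their values were seen. Capitals mark the site, which in Mcm5 is a run of 2 overlapping matches on opposite strands.
Mcm5 (chr8:75109259-75109508, + strand): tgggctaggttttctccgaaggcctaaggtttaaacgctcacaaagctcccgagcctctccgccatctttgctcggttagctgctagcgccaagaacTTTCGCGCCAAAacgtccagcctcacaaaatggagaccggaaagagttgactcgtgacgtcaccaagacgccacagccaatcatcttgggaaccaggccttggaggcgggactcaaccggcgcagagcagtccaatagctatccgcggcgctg
Rfc3 (chr5:151651209-151651458, - strand): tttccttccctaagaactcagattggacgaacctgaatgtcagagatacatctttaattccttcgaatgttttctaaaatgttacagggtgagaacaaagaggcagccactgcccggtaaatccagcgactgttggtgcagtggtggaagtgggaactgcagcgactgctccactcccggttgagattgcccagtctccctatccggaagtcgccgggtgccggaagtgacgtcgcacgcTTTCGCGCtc

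Of 23 replication genes with a promoter entry, 8 held an E2F site (34.78%), against 2.157% of all genes in the table. Of the 24 mitosis genes 1 did. Rfc3, a subunit of the clamp loader of DNA polymerase, stood at 9.20 and 9.26 against 8.39 and 8.21 and fell by 0.92 ± 0.21 (adjusted p = 0.0423, 0.128 to 0.24 without any 1 of the 4 arrays). None of the 11 Hedgehog list genes with an entry held the GLI site GACCACCCA on either strand, against 0.2553% of all genes, which says only that these letters are not in this window.

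Wound keratins, alarmins and cornified envelope genes held the largest decreases of the whole comparison. Of 16 tested genes of the wound and stress list, 2 were under the dim level in each of the 6 arrays outside the untreated Lgr5-negative group. In that group none were. Any member dim in all 6 was tested only through the group where it is high. Of the 16 genes, 6 were among the 20 largest decreases over all genes. With a list median of -1.96, 11 fell and none rose, against 4.18% of all genes that fell. Without untreated array 1 or 2, 8 or 6 of them remained past the threshold, and without treated array 1 or 2, 7 remained either way. Krt6b, a keratin induced in wounded and hyperproliferative epidermis, stood at 11.33 and 11.84 in untreated Lgr5-negative arrays and at 6.21 and 8.44 in treated Lgr5-positive arrays. It fell by 4.26 ± 0.65, 19.2-fold (adjusted p = 0.0118, lost without either untreated array at 0.0531 and 0.102). The 2 treated arrays lay over 2 log2 units apart, and both were below both untreated arrays.

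Krt16, another keratin of wounded epidermis, stood at 11.11 and 11.47 against 9.31 and 9.52, and fell by 1.87 ± 0.17 (adjusted p = 0.00218). Sprr2d, a precursor of the cornified envelope, stood at 10.77 and 11.30 against 7.004 and 7.45 and fell by 3.81 ± 0.41 (adjusted p = 0.00416). Sprr1b, of the same family, stood at 8.96 and 9.59 against 5.88 and 5.87 and fell by 3.40 ± 0.37 (adjusted p = 0.00416). Both Sprr calls held in every fit that left an array out, and the untreated Lgr5-negative arrays were the highest of the 8 for each.

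The calcium-binding alarmins S100a8 and S100a9, which are abundant in neutrophils and are induced in stressed keratinocytes, fell together. S100a8 stood at 10.62 and 11.46 against 7.46 and 6.78 and fell by 3.92 ± 0.64 (adjusted p = 0.0149). S100a9 stood at 10.68 and 11.27 against 7.84 and 7.80 and fell by 3.15 ± 0.51 (adjusted p = 0.0147). Each call was lost without any 1 of the 4 arrays (adjusted p = 0.052 to 0.126 for S100a8 and 0.055 to 0.125 for S100a9). Both also stand in the neutrophil and mast cell list, of which 7 of 15 genes on the array were bright enough to test, and no other gene of it passed. Csf3r, the neutrophil growth factor receptor, was near the dim level at 4.66 and 4.80 against 4.87 and 5.28, and Cxcr2 was set aside as dim. Mmp9, a protease of neutrophils and other cells, stood at 5.68 and 8.49 against 6.71 and 6.44, high in untreated array 2 alone (adjusted p = 0.742). The part of neutrophils in the fall of S100a8 and S100a9 was not tested. Il1f9, an interleukin of the family induced in inflamed epidermis, stood at 10.37 and 10.96 against 6.18 and 7.90 and fell by 3.62 ± 0.54 (adjusted p = 0.0114, 0.0986 without untreated array 2). Ptgs2, the inducible cyclooxygenase, stood at 7.77 and 8.11 against 5.21 and 5.43 and fell by 2.62 ± 0.19 (adjusted p = 0.00169).

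The mean signal over the wound and stress list was 9.25 and 9.86 in untreated Lgr5-negative arrays and 7.45 and 7.49 in treated Lgr5-positive arrays. It was 6.87 and 7.34 in untreated Lgr5-positive and 8.06 and 7.73 in treated Lgr5-negative arrays. The untreated Lgr5-negative arrays were thus above the other 6.

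**Figure D4:**
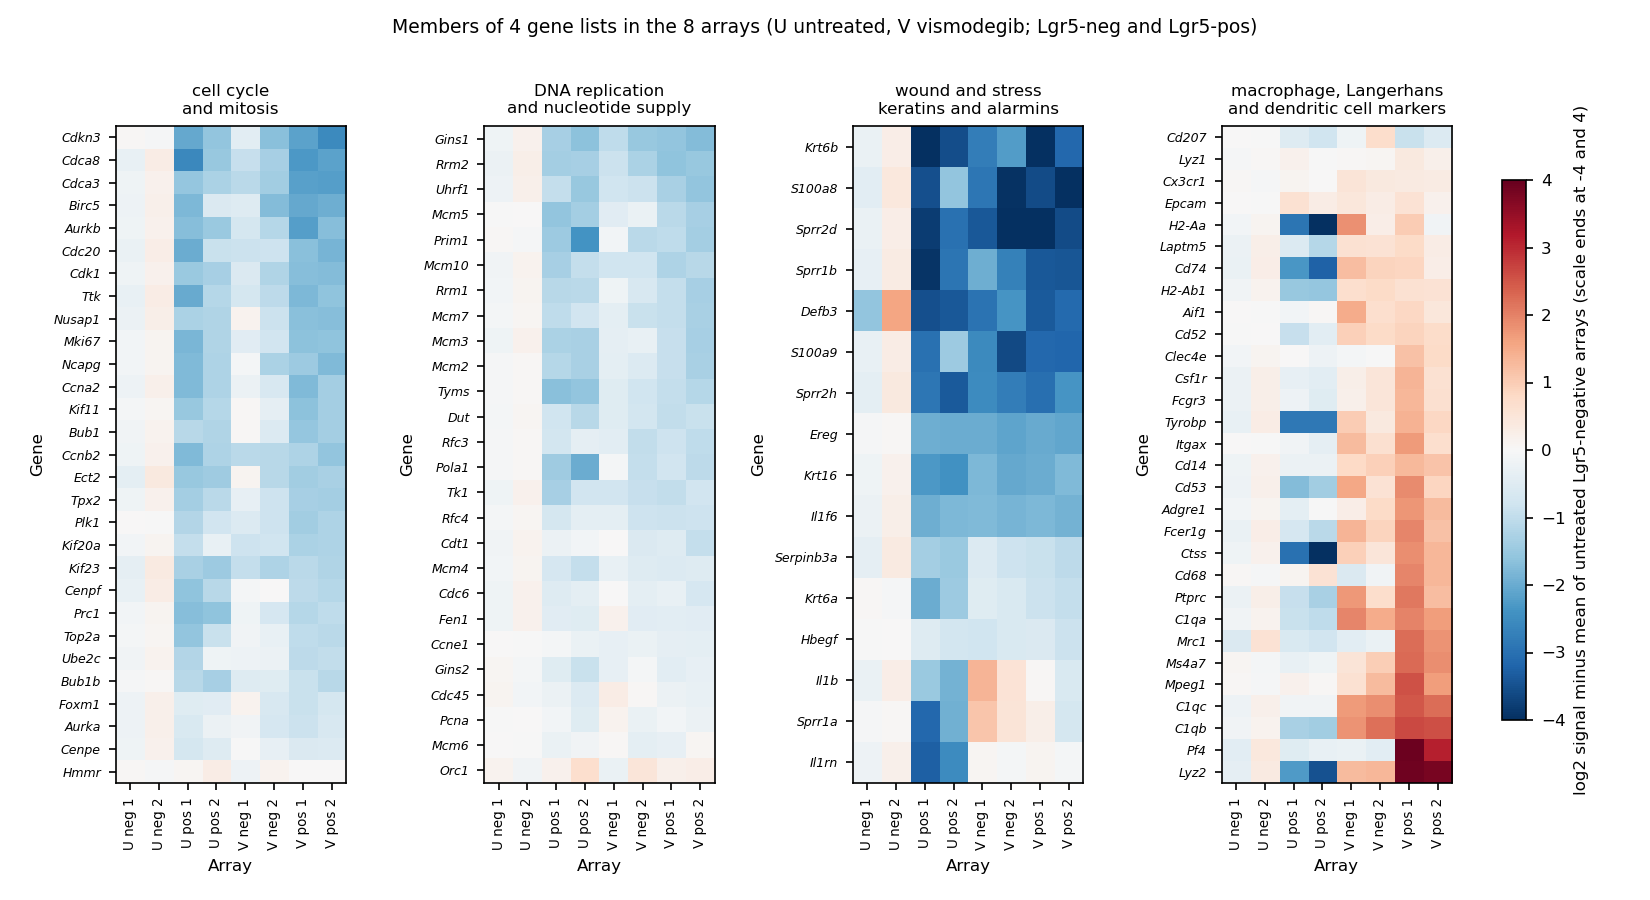
Log2 signal of the tested members of 4 gene lists in each of the 8 arrays, as the difference from the mean of the 2 untreated Lgr5-negative arrays (colour scale ending at -4 and 4). Most mitosis, replication and wound genes are blue, that is lower, in treated Lgr5-positive arrays, where macrophage genes are mostly red.

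Part of the differentiation genes fell too, where 4.18% of all genes fell. Of 24 tested interfollicular and suprabasal genes 10 fell and 1 rose, with a median of -1.11 and 21 members below 0; without untreated array 1 or 2, 6 or 4 fell, and without treated array 1 or 2, 9 or 5. Tgm3, a transglutaminase that crosslinks the cornified envelope, stood at 9.94 and 9.71 against 6.95 and 7.11 and fell by 2.79 ± 0.15 (adjusted p = 0.000577). Abca12, the lipid transporter of lamellar granules, stood at 8.88 and 8.98 against 7.63 and 7.22, and fell by 1.51 (adjusted p = 0.00475, 0.0512 without untreated array 2). Krt1, the keratin of the spinous layer, stood at 12.35 and 12.51 against 10.87 and 11.39 and missed the threshold (difference -1.30, adjusted p = 0.0817). Its partner Krt10 differed by -0.50 (adjusted p = 0.0705), Ivl, the envelope protein involucrin, by -0.13 (adjusted p = 0.764) and Casp14, a protease of cornification, by -1.96 (adjusted p = 0.0882).

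Krt77, a suprabasal keratin, was the exception. It stood at 7.60 and 6.41 in untreated Lgr5-negative arrays and at 10.66 and 9.74 in treated Lgr5-positive arrays, and rose by 3.20 ± 0.41 (adjusted p = 0.00648), in every fit that left an array out. Treated Lgr5-negative arrays were higher again, at 11.64 and 11.55, and untreated Lgr5-positive arrays low, at 5.49 and 5.81. Both treated populations therefore lay above both untreated ones.

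Other decreases lay in genes of thyroid hormone and retinoic acid handling and in a collagen gene. Dio2, an iodothyronine deiodinase that activates thyroid hormone, stood at 9.65 and 9.11 against 6.15 and 5.88 and fell by 3.37 ± 0.21 (adjusted p = 0.00105). Untreated Lgr5-positive arrays stood at 9.63 and 9.59 and treated Lgr5-negative arrays at 6.28 and 6.67, so Dio2 followed treatment in both populations. Aldh1a3, which makes retinoic acid, stood at 9.06 and 9.16 against 6.44 and 6.31 and fell by 2.74 ± 0.15 (adjusted p = 0.000577). Col27a1, a fibrillar collagen, stood at 9.33 and 8.61 against 6.32 and 5.93 and fell by 2.84 ± 0.29 (adjusted p = 0.00325). These 3 calls held in every fit that left an array out.

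Over all genes 4.18% fell. Of 20 tested genes of cholesterol and fatty acid synthesis 8 fell and none rose, with a median of -0.76 and 19 members below 0. This count also rests on single arrays: without untreated array 1 or 2, 3 or 0 remained past the threshold, and without treated array 1 or 2, 2 or 1. In the fit with 0, limma gave 12 of them an unadjusted p under 0.05. Dhcr7, which carries out the last step of cholesterol synthesis, stood at 9.85 and 9.92 against 8.57 and 8.67, and fell by 1.26 ± 0.16 (adjusted p = 0.0062, 0.0689 without untreated array 2). Fdps, the farnesyl diphosphate synthase, stood at 8.997 and 9.31 against 7.98 and 7.76, and fell by 1.29 ± 0.22 (adjusted p = 0.018, 0.0589 to 0.147 without any 1 of the 4 arrays). Idi1, an isomerase of the same pathway, stood at 8.61 and 8.99 against 7.60 and 7.64, and fell by 1.18 ± 0.20 (adjusted p = 0.0173, 0.0939 to 0.139 without treated array 1 or 2 or untreated array 2). Sc5d fell by 1.15 in its brightest probe set only: the mean of its probe sets differed by -0.41 (adjusted p = 0.401).

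Among genes of EGF receptor and ERK signalling, 4 ligands fell, and of the feedback inhibitors Errfi1 rose and Spry4 fell. Of the 4 ligands, Ereg was tested only through the group where it is high. Of 21 tested genes of that list, Ereg included, 6 fell and 1 rose, with a median of 0.04. Over all genes 4.18% fell and 2.95% rose. Of the 6 that fell, 2 remained without untreated array 1, 1 (Ereg) without untreated array 2 and 3 without either treated array. Epgn, the ligand epigen, stood at 10.37 and 10.24 against 7.46 and 8.34 and fell by 2.40 ± 0.34 (adjusted p = 0.01, 0.0595 and 0.0765 without either untreated array). Ereg, the ligand epiregulin, stood at 5.84 and 5.96 against 3.89 and 3.81. It was lower in the test (adjusted p = 0.000577), but all 6 arrays outside the untreated Lgr5-negative group were under the dim level of 4.853, so it was tested only through the group where it is high and no size is given for its change. Nrg1, a ligand of related receptors, stood at 6.93 and 6.91 against 5.82 and 5.73 and fell by 1.14 ± 0.14 (adjusted p = 0.0059, 0.0633 without untreated array 2). Errfi1, a feedback inhibitor of the EGF receptor, rose from 10.60 in both untreated arrays to 11.96 and 11.76, by 1.26 ± 0.13 (adjusted p = 0.003). Spry4, an inhibitor induced by ERK signalling, stood at 6.94 and 7.05 against 6.07 and 5.97 and fell by 0.98 ± 0.15 (adjusted p = 0.0138). That call was lost without any 1 of the 4 arrays. Its other probe sets differed by -0.17, -0.48 and -0.08, the last under the dim level in all 8 arrays. Etv4, a transcription factor downstream of ERK, stood at 8.57 and 8.70 against 7.54 and 7.91 and fell by 0.91 (adjusted p = 0.0349, 0.0836 to 0.227 without any 1 of the 4 arrays).

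In the BMP and TGF-beta list 3 of 27 tested genes rose and 1 fell, with a median of 0.02, and none passed without untreated array 2, where 5 higher and 3 lower genes had an unadjusted p under 0.05 in limma's fit. The ligand gene Tgfb3 stood at 9.31 and 9.21 against 7.51 and 7.88 and fell by 1.56 ± 0.21 (adjusted p = 0.00707, 0.065 without untreated array 2). The ligand gene Tgfb2 stood at 8.33 and 7.72 against 8.78 and 9.27. Its rise of 1.00 ± 0.24 passed the threshold narrowly (adjusted p = 0.0485) and was lost without any 1 of the 8 arrays (adjusted p = 0.0509 to 0.283).

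Among matrix genes, 5 of 24 tested rose and 1 fell, with a median of 0.17. Without untreated array 1 or 2, 2 or 1 rose, without treated array 1 or 2, 5 or 3, and none fell without any 1 of the 8 arrays, where 2 to 4 had an unadjusted p under 0.05 in limma's fit. Abi3bp, a secreted matrix protein, had the largest rise of all genes: 5.92 and 5.96 in untreated Lgr5-negative arrays against 9.95 in both treated Lgr5-positive arrays, or 4.01 ± 0.35 (16.1-fold, adjusted p = 0.00211). Its other probe set differed by 3.94. Untreated Lgr5-positive arrays were also high, at 8.94 and 8.02, and treated Lgr5-negative arrays low, at 6.43 and 5.53, so Abi3bp followed the Lgr5 sort. Thbs2, a matricellular thrombospondin, stood at 6.36 and 5.99 against 8.42 and 9.60 and rose by 2.84 ± 0.53 (adjusted p = 0.0223, 0.0871 to 0.163 without either untreated array or treated array 2). It stood at 9.16 and 10.71 in treated Lgr5-negative arrays. Fn1, fibronectin, stood at 5.55 and 5.62 against 8.39 and 7.002 and rose by 2.11 ± 0.38 (adjusted p = 0.0197, 0.0991 and 0.13 without either untreated array).

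Further large increases lay outside the lists. Ackr4, a scavenging chemokine receptor, stood at 8.61 and 7.96 against 10.87 and 11.27 and rose by 2.79 ± 0.28 (adjusted p = 0.00321). Man1c1, a mannosidase of the Golgi, stood at 6.78 and 6.62 against 9.13 and 9.67 and rose by 2.70 ± 0.18 (adjusted p = 0.00127). Cd55, an inhibitor of complement on the cell surface, stood at 6.13 and 6.06 against 8.73 and 8.70 and rose by 2.62 ± 0.11 (adjusted p = 0.000335). Treated Lgr5-negative arrays stood at 9.99 and 10.34 for Ackr4, 8.41 and 8.38 for Man1c1 and 8.17 and 8.30 for Cd55. Both treated populations thus lay above both untreated ones in each gene. For all 3 genes the treated Lgr5-positive arrays were the highest of the 8, and the calls held in every fit that left an array out.

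Many genes of macrophages and related cells rose. Of 30 tested genes of the macrophage, Langerhans and dendritic cell list 28 did not overlap on the higher side, against 31.2% of all genes. Pf4, a member of the list, was tested only through the group where it is high. With a list median of 1.21, 16 rose, Pf4 included, and none fell, against 2.95% of all genes that rose. The count was 8 without either untreated array or treated array 1, and 14 without treated array 2. Lyz2, the lysozyme of myeloid cells, stood at 6.78 and 7.48 in untreated Lgr5-negative arrays and at 11.02 and 10.93 in treated Lgr5-positive arrays, a rise of 3.85 ± 0.38 (adjusted p = 0.00289). Its probe set can bind related transcripts, so the value is less certain. Untreated Lgr5-positive arrays were at 4.85 and 3.63 and treated Lgr5-negative arrays at 8.39 and 8.45, so the treated Lgr5-positive arrays were the highest of all 8.

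Pf4, a chemokine of platelets and macrophages, stood at 4.68 and 5.50 against 9.02 and 8.20 and rose by 3.52 ± 0.32 (adjusted p = 0.0022), while treated Lgr5-negative arrays stood at 4.82 and 4.68. Ccl6, a chemokine of myeloid cells, stood at 5.22 and 5.15 against 8.83 and 8.17 and rose by 3.32 ± 0.21 (adjusted p = 0.00105). C1qb, a chain of complement C1q made by macrophages, stood at 6.58 and 6.85 against 9.37 and 9.30 and rose by 2.62 ± 0.17 (adjusted p = 0.00106). All 3 calls held in every fit that left an array out, and treated Lgr5-negative arrays stood at 8.50 and 8.91 for C1qb. Adgre1, which encodes the macrophage antigen recognised by the F4/80 antibody, stood at 4.68 and 4.91 against 6.57 and 6.07 (a rise of 1.52, adjusted p = 0.0124, 0.0706 to 0.078 without either untreated array or treated array 1). Ptprc, the pan-leukocyte marker, stood at 5.39 and 5.84 against 7.74 and 6.86 (a rise of 1.68, adjusted p = 0.0471, 0.0547 to 0.213 without any 1 of the arrays of the 2 groups or of untreated Lgr5-positive cells).

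Not all defining markers passed: Csf1r differed by 0.97 (adjusted p = 0.0661), the Langerhans cell marker Cd207 by -0.72 (adjusted p = 0.165), and Itgam and Cd163 were set aside as dim. The mean over the list was 6.71 and 7.003 in untreated Lgr5-negative, 6.05 and 5.80 in untreated Lgr5-positive, 7.64 and 7.52 in treated Lgr5-negative and 8.43 and 7.95 in treated Lgr5-positive arrays. These genes are markers of another cell type than the one labelled, they move with the group, and their part in the other differences was not tested.

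T cell, endothelial, pericyte, Merkel cell and nerve markers did not pass the test, while some dermal fibroblast markers rose. Of 13 tested T cell genes none passed in limma's fit, and 0 had an unadjusted p under 0.05, with list means of 5.98 and 6.21 against 6.09 and 6.01, and Cd3e stood at 5.64 and 6.12 against 5.62 and 5.39. Of 14 endothelial and pericyte genes none passed, with means of 5.85 and 5.89 against 5.82 and 5.86, and 1 had an unadjusted p under 0.05. Of 10 Merkel cell and nerve genes none passed, and 0 had an unadjusted p under 0.05. Of 16 dermal fibroblast genes on the array 10 were bright enough to test and 3 rose, Vim, Sparc and Col6a1, of which 0 or 1 remained without any 1 of the 4 arrays. Over all genes 2.95% rose. Untreated Lgr5-positive arrays stood at 8.50 and 8.16 for Sparc and at 7.02 and 6.41 for Col6a1. Treated Lgr5-negative arrays stood at 5.52 and 5.98 for Sparc and at 4.89 and 4.71 for Col6a1. Among the defining markers, Col1a2 stood at 5.01 and 5.04 against 5.28 and 5.20, and Col3a1, Pdgfra, Lum and Dpt were set aside as dim. Sparc, a matricellular protein, stood at 7.35 and 7.36 against 8.26 and 8.87 (a rise of 1.21 ± 0.24, adjusted p = 0.0268, 0.125 to 0.165 without either untreated array or treated array 2). Vim, the intermediate filament vimentin that leukocytes also make, stood at 7.82 and 8.41 against 9.77 and 9.38 (a rise of 1.46 ± 0.22, adjusted p = 0.0122, lost without untreated array 1 or treated array 1 at 0.055 and 0.0736).

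Of 9 melanocyte genes 1 rose, the transcription factor Mitf, at 6.56 and 5.86 against 7.79 and 8.10 (1.74 ± 0.23, adjusted p = 0.00731, 0.0613 without treated array 2), and its other probe set differed by 0.18. That other Mitf probe set was under the dim level in all 8 arrays (4.39 to 4.77), so it cannot show a change. The pigment enzyme gene Tyr was near the dim level in all 4 arrays, at 4.89 and 4.72 against 4.90 and 4.85. Whether other cell types contributed to these rises was not tested.

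**Figure D5:**
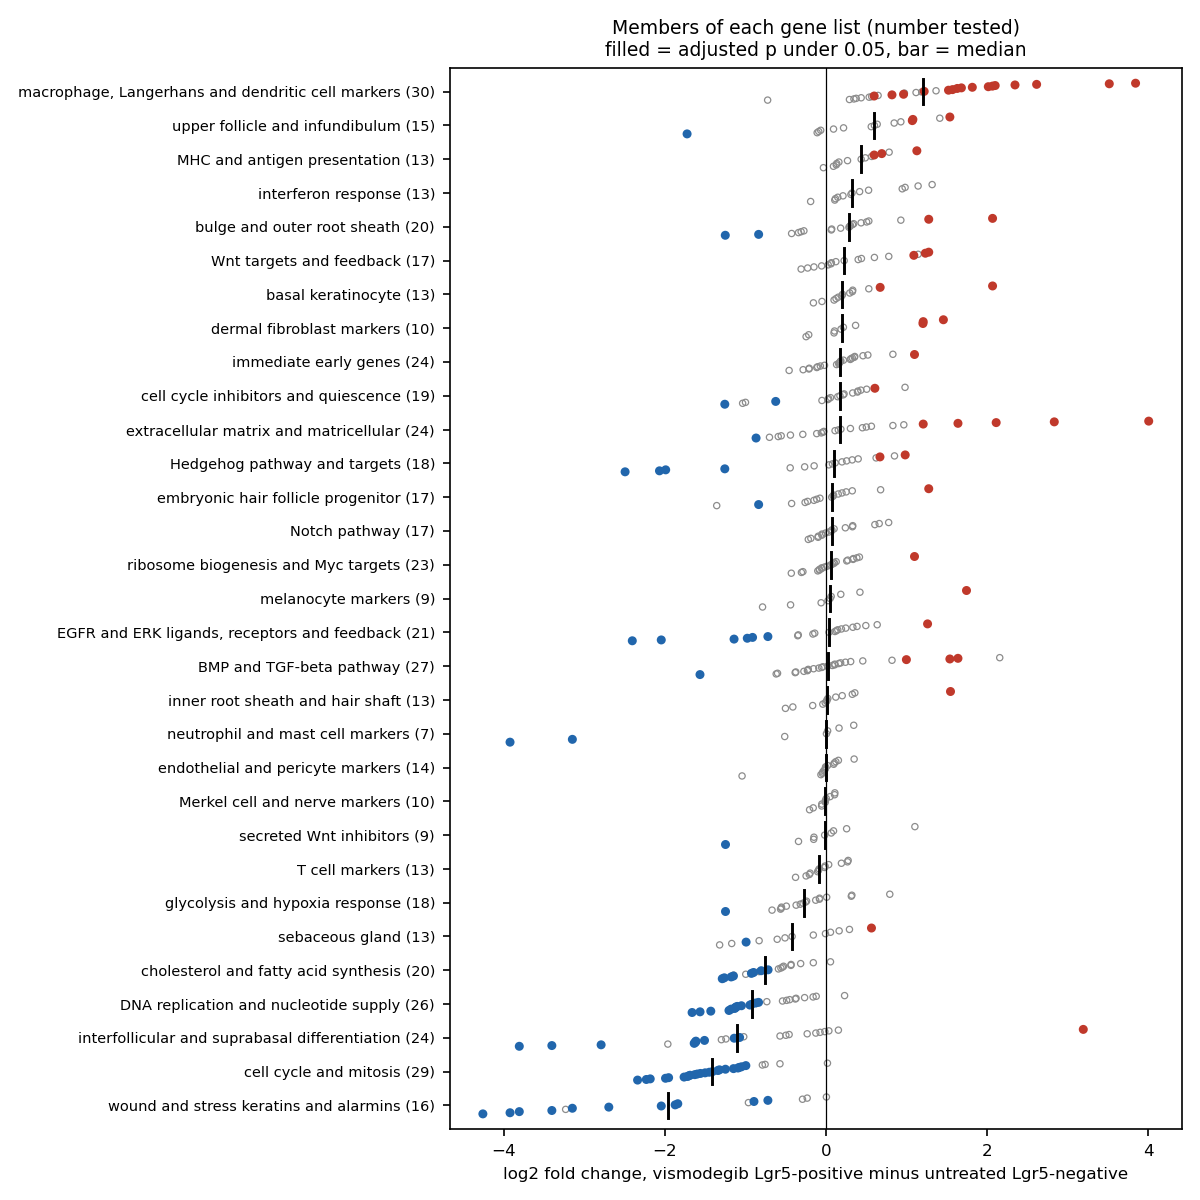
Log2 fold change, treated Lgr5-positive minus untreated Lgr5-negative, of each tested member of the 31 gene lists, with the list median as a bar and members past the threshold filled. Macrophage genes lie to the right (median 1.21), and wound, mitosis, differentiation, replication and cholesterol genes to the left (medians -1.96, -1.41, -1.11, -0.92 and -0.76).

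Several lists held few or no calls. None of 17 Notch pathway genes and none of 13 interferon response genes passed the test, with medians of 0.07 and 0.32; 3 and 5 of them had an unadjusted p under 0.05 in limma's fit. Of the other lists, 1 of 24 immediate early genes, 1 of 23 ribosome biogenesis and Myc target genes and 1 of 13 inner root sheath and hair shaft genes rose, and none fell; each of these calls was lost without untreated array 2 or either treated array. Of 13 MHC and antigen presentation genes 3 rose, with a median of 0.44; the count was 1 without untreated array 1 and 0 without untreated array 2 or either treated array, where limma gave 4 or 5 an unadjusted p under 0.05. Nlrc5, the activator of MHC class I genes, stood at 9.33 and 8.90 against 10.13 and 10.36 and rose by 1.13 ± 0.20 (adjusted p = 0.0188, 0.0698 to 0.142 without treated array 1 or 2 or untreated array 2).

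Some list genes had near-equal signals in treated Lgr5-positive and untreated Lgr5-negative cells while both differed from untreated Lgr5-positive cells; these were picked for that pattern and are a description. Il1rn, the interleukin receptor antagonist, stood at 9.24 and 9.66 in untreated Lgr5-negative and 9.55 and 9.35 in treated Lgr5-positive arrays, against 6.17 and 6.92 in untreated Lgr5-positive arrays. Notch3, a Notch receptor, stood at 8.16 and 8.23 and at 8.21 and 8.25, against 7.12 and 6.57. Lamc1, a laminin chain of the basement membrane, stood at 9.09 and 9.19 and at 8.91 and 9.27, against a higher 10.08 and 10.07. In all 3 the first 2 groups overlapped and untreated Lgr5-positive arrays lay outside them. The other examples named by the same rule were Klf6, Tcf7l2, Hes1, Dkc1, Nip7 and Plet1. Their treated Lgr5-positive minus untreated Lgr5-negative differences lay between -0.06 and 0.05 in the brightest probe set. Some other probe sets differed more, by 0.47 for Plet1, -0.37 for Dkc1, -0.25 for Tcf7l2 and -0.20 for Klf6, so the likeness holds for the brightest probe set only. Efemp1 also met the rule, but it was under the dim level in all 4 arrays compared (4.26 to 4.39), so it shows no likeness of expression.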

How the data were processed

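Total RNA of sorted cells was amplified, labelled and hybridised to Affymetrix perfect-match mouse arrays, 2 arrays for each of 4 groups. The authors deposited log2 values made with RMA, per the submitters' processing notes; its version is not given in the sources used here. Of 45141 probe sets, 28898 were paired with 1 gene symbol by GEO's platform annotation, 551 with several and 15692 with none, array controls included, and only the first were used. They cover 17097 genes, 7180 with over 1 probe set, of which that with the highest mean was taken. A gene was tested where 2 or more arrays exceeded 4.853, the level below which 25% of all values lay. Group means of all 8 arrays were fitted with limma 3.58.1 in R 4.3.3 (4 residual and 3.53 prior degrees of freedom), and p-values were adjusted by Benjamini-Hochberg over 14403 genes. P-values measure the spread between arrays within the 4 groups, and both arrays of a mouse enter as separate samples. In data simulated for this comparison over 14403 genes, the fit recovered 18% of 50 genes changed 1.5-fold, 80% at 2-fold, 98% at 4-fold and 100% at 8-fold, with 4 false calls.

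The comparison and the 31 gene lists were chosen with earlier results of these data known. Named genes are Lgr5, Lrig1, Ptch1, Gli1, Gli2, Hhip and Smo, the 20 largest increases and decreases past the threshold without overlap, the 5 largest changes in each list, and 10 similarity examples; 1 further item of the rule is not reported here. Of these 180 genes, 90 passed the threshold. Other list members named (such as Cdc20, Cdk1, Mki67, Rfc3, Gli3, Krt16, Krt1, Krt10, Ivl, Abca12, Etv4, Adgre1, Ptprc, Csf1r and Cd207) were chosen after their values were seen. Il1f9 is the array's symbol. Promoters are RefSeq's for GRCm38.p6. Alternatives were other filters, probe set rules, loess normalisation, variance trends, mouse blocks, a test against 1.5-fold, the 4 arrays alone and leaving out each array.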

Additional observations from a re-analysis of the deposited data

How the results depend on the processing

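No named gene past the threshold changed direction under any alternative run. Genes that were not named were not checked in this way. In the run with every probe set, the direction was read from each gene's brightest probe set only. The 1027 genes that differed became 923 with no filter on dim genes, 1160 with the mean of each gene's probe sets and 1068 after loess, but 2271 when only the 4 arrays compared were fitted (868 higher, 1403 lower) and 116 (44 higher, 72 lower) when tested against 1.5-fold. Leaving out 1 array gave 124 to 1334 genes, 48 to 521 higher and 76 to 813 lower. Of the 90 named genes past the threshold, 32 kept it in every fit that left an array out, and 53 lost it against 1.5-fold. With 2 arrays a group, changes below 2-fold are poorly resolved.

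For the other pairs of groups, leaving out 1 array gave 543 to 1823 genes for treated against untreated Lgr5-positive cells, 18 to 107 for treated Lgr5-positive against treated Lgr5-negative, 582 to 2852 for the untreated populations, 65 to 523 for the Lgr5-negative populations and 1525 to 2604 for treated Lgr5-negative against untreated Lgr5-positive. In that order, the test against 1.5-fold gave 327, 10, 341, 66 and 533. With only the 4 arrays of a pair, the second gave 11, the fourth 234 and the fifth 1193. With every probe set as a feature, the first gave 2539 and the fifth 3992. Without a filter the second gave 36.

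The median absolute difference between treated Lgr5-positive and untreated Lgr5-negative means was 0.152 without a filter, 0.235 with a filter at the median, and 0.184 to 0.209 without 1 array. For treated against untreated Lgr5-positive cells these were 0.158, 0.241 and 0.190 to 0.229, for the untreated populations 0.196, 0.298 and 0.230 to 0.262, for the Lgr5-negative populations 0.146, 0.202 and 0.169 to 0.197, and for treated Lgr5-negative against untreated Lgr5-positive cells 0.184, 0.284 and 0.212 to 0.273. For treated Lgr5-positive against treated Lgr5-negative cells it was 0.141 to 0.208 without 1 array. The untreated populations gave 0.218 with the mean of probe sets and 0.216 after loess.

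Mouse numbers are shared between groups, but the 4 arrays compared came from 4 mice, so the number pairs none of them. With the mouse number as a replicate block 907 genes differed, of which 819 were among the 1027, and treated Lgr5-positive against treated Lgr5-negative cells gave 33. The deviations of same-numbered arrays from their group means correlated at -0.0765 between the 2 groups compared. With mouse as a random block (correlation 0.0823) 1049 genes differed.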
